A study of Mus musculus with 15 samples.

Results

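The 10 genes described here are the lymphotoxin genes Lta and Ltb, the neighbouring Tnf, and 7 receptors of the same family, Ltbr, Tnfrsf1a, Tnfrsf1b, Tnfrsf13c, Cd40, Fas and Cd27. They were chosen by gene symbol, with the expression levels of the same libraries already known, so their differences between the groups are given as a description, with no p-value, and a count of calls among them stands only beside the share over all genes. All 10 were found among the 55335 genes of the files, and 5 of them (3 ligands and 2 receptors) were among the 13077 genes with enough reads to be tested. The RNA came from a mouse pre-B cell culture, in 3 libraries titled MSL2KO and 3 titled MSL2WT. All 6 come from Slp65KO bone marrow cells that were subcloned from a single cell and kept in interleukin 7, so both groups lack SLP65, the adaptor that passes on signals of the pre-B cell receptor. The knockout line was made from them by electroporation with a guide RNA against Msl2, which encodes a subunit of the histone acetylating MSL complex, and the other group is the wt clone. Each genotype is thus 1 line, no library had a treatment, and whether the replicates grew as separate cultures is not in the labels. The genotype tags give the opposite genotype to the titles in all 6 libraries. Knockout and wild type mean here the libraries so titled, and every direction rests on the titles.

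Lymphotoxin alpha and TNF are secreted or membrane-bound cytokines that act as trimers. Lymphotoxin alpha binds the TNF receptors as a homotrimer, whereas together with membrane-anchored lymphotoxin beta it forms the heterotrimer that binds the lymphotoxin beta receptor. B cells are a main source of that heterotrimer, and stromal cells that carry the receptor answer it by building lymphoid organs and follicles. Tnfrsf1a and Fas carry a death domain, while Tnfrsf1b, Tnfrsf13c, Cd40, Cd27 and Ltbr recruit TRAF adaptors.

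Total counts ranged from 15250975 to 20803227 reads in the knockout libraries and from 14092278 to 17437198 in the wild-type libraries. Levels are CPM, counts per library size in megareads after TMM scaling. At these depths, a count of 0 allows a level of up to 0.141 to 0.212 CPM depending on the library, which covers counting error only. Msl2 itself averaged 110 CPM in the knockout and 96.3 CPM in the wild type (adjusted p = 0.302, edgeR quasi-likelihood test). Its level was higher in every library titled knockout (103 to 121 CPM) than in any titled wild type (92.3 to 99.3 CPM). Such a separation was shown by 20.9% of all tested genes in one direction or the other. The RNA level of Msl2 thus did not check the titles. Blnk, which encodes SLP65, still gave reads and averaged 112 CPM in the knockout and 98.3 CPM in the wild type (adjusted p = 0.563, edgeR). Of 12 pre-B cell markers, 11 were tested. All 12 together summed to between 2995 and 3020 CPM in the knockout libraries and between 2963 and 3282 CPM in the wild-type libraries. The 13 T and NK cell markers summed to between 3.9 and 4.97 CPM in the knockout libraries and between 2.65 and 6.26 CPM in the wild-type libraries, with Ncr1 and Gzmb at 0 reads throughout.

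Lta was the member with the largest difference, and it was lower in the knockout. It is a gene of 2.414 kb on chromosome 17 (35203165 to 35205578, mm10, ENSMUSG00000024402.5). Its level was 28.4, 45.9 and 27.3 CPM in knockout replicates 1, 2 and 3, against 93.6, 105 and 126 CPM in wild-type replicates 1, 2 and 3. The highest knockout library was below the lowest wild-type library. The means were 33.8 ± 10.4 CPM in the knockout and 108 ± 16.3 CPM in the wild type (SD, n = 3 each), a 3.18-fold lower level with a log2 fold change of -1.67 ± 0.19 (SE). Leaving out each library in turn gave log2 fold changes between -1.95 and -1.53, the lowest without knockout replicate 2, which held the most Lta RNA of its group. In bulk RNA, fewer cells that express a gene and less RNA per cell cannot be told apart. Of the 5 tested members, Lta was the 1 called at an adjusted p under 0.05 over all genes, where 4.59% of all tested genes were called (2.79% lower and 1.8% higher in the knockout). Because this contrast was known when the members were chosen, nothing is read from that count.

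Tnf, which lies 1.157 kb from Lta on the same strand (35199367 to 35202007, ENSMUSG00000024401.14), differed little between the groups. It stood at 75.2, 67.4 and 55.6 CPM in knockout replicates 1, 2 and 3, against 57.4, 63.4 and 70.9 CPM in wild-type replicates 1, 2 and 3. The groups overlapped, with the highest level in knockout replicate 1 and the lowest in knockout replicate 3. The log2 fold change was 0.05 ± 0.12 (SE), and it turned to -0.05 without knockout replicate 1 and to -0.02 without wild-type replicate 1. Ltb lies 3.061 kb on the other side of Tnf, on the opposite strand (35194507 to 35196305, ENSMUSG00000024399.5). It encodes the membrane anchor of the heterotrimer.

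Ltb varied widely within the knockout. It was at 17.7, 10.2 and 4.36 CPM in knockout replicates 1, 2 and 3, against 17.7, 12.7 and 13.9 CPM in wild-type replicates 1, 2 and 3. Knockout replicate 1 was level with the highest wild-type library, and knockout replicates 2 and 3 were below all wild-type libraries. The highest knockout library exceeded the lowest 4.07-fold, compared with 1.4-fold among the wild-type libraries. The log2 fold change of -0.45 ± 0.36 (SE) moved with single libraries, being -0.99 without knockout replicate 1 and -0.087 without knockout replicate 3.

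**Figure D1:**
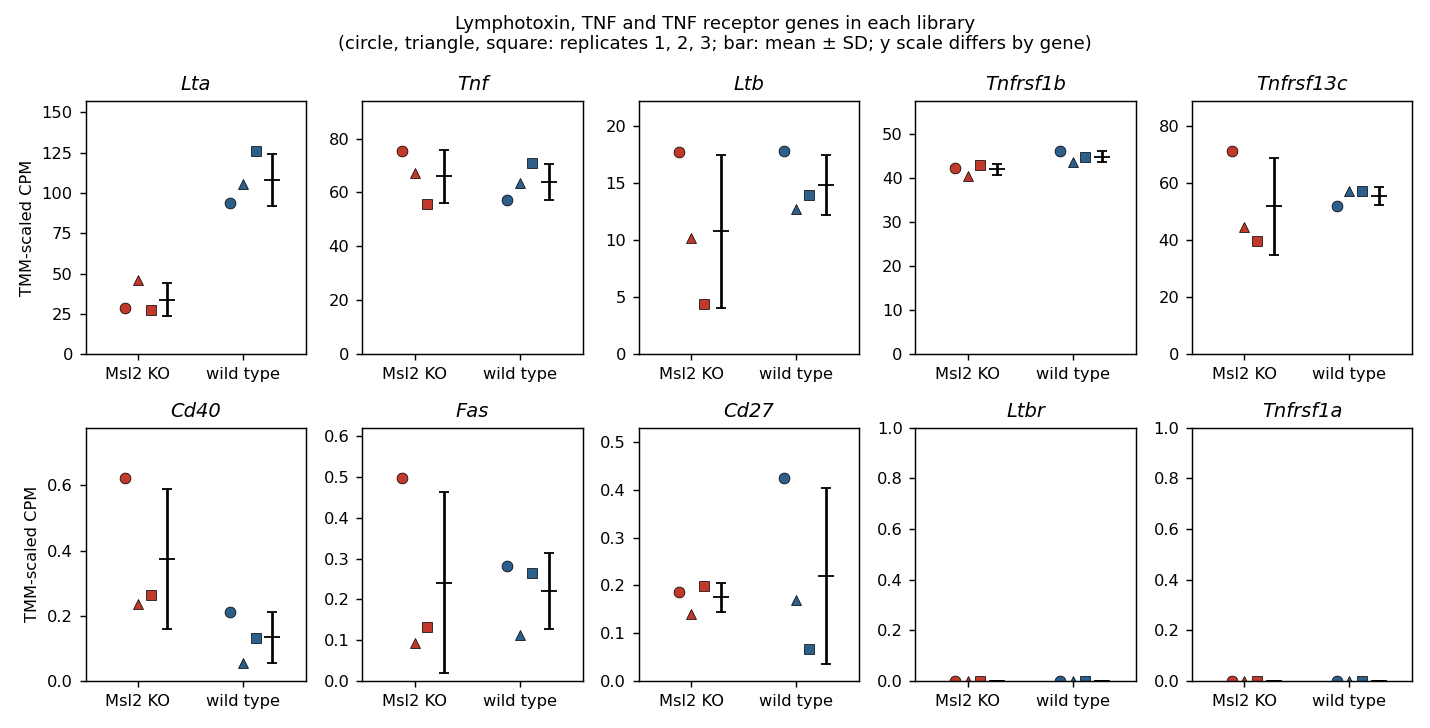
Expression of the 10 genes in TMM-scaled CPM (y axis, own scale for each gene) in the Msl2 knockout and wild-type libraries (x axis), with circles, triangles and squares for replicates 1, 2 and 3 and bars for mean ± SD. Lta lies between 27.3 and 45.9 CPM in the knockout, against 93.6 to 126 CPM in the wild type, while Tnf and Ltb overlap between the groups and Ltbr and Tnfrsf1a are at 0.

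Since the 3 ligand genes share 1 stretch of 11.07 kb, their levels were also set against each other within each library. Exon lengths were not used here, so CPM was divided by the whole annotated span, introns included. Lta was at 14 ± 4.32 CPM per kb of span in the knockout, against 44.8 ± 6.74 in the wild type (SD, n = 3 each). Tnf was at 25 ± 3.73 CPM per kb in the knockout, against 24.2 ± 2.57 in the wild type. Ltb was at 5.98 ± 3.72 CPM per kb in the knockout, against 8.22 ± 1.46 in the wild type. The order of levels was therefore Tnf, Lta, Ltb in all 3 knockout libraries, against Lta, Tnf, Ltb in all 3 wild-type libraries, although Lta and Ltb were close in knockout replicate 1 (11.7 and 9.85 CPM per kb).

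The ratio of reads within a library does not depend on depth or scaling. There were 0.377, 0.681 and 0.491 Lta reads for each Tnf read in knockout replicates 1, 2 and 3, against 1.63, 1.66 and 1.77 in wild-type replicates 1, 2 and 3. All 3 knockout ratios were below 1 and all 3 wild-type ratios above it. Ltb reads per Lta read were 0.625, 0.222 and 0.159 in the knockout replicates, against 0.189, 0.121 and 0.111 in the wild-type replicates. These ratios overlapped, and the highest was again in knockout replicate 1.

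**Figure D2:**
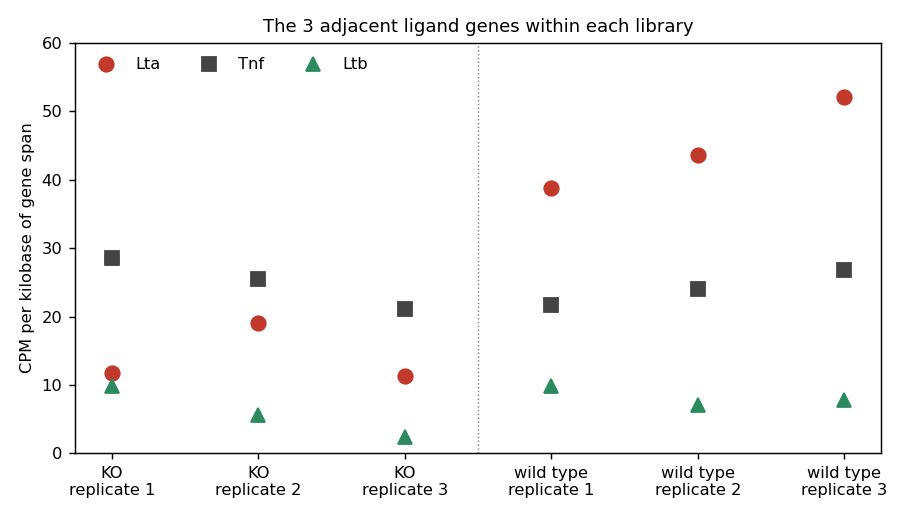
CPM per kilobase of annotated gene span (y axis) of Lta, Tnf and Ltb in each of the 6 libraries (x axis, knockout on the left). Lta lies below Tnf in the 3 knockout libraries (11.3 to 19 CPM per kb) and above it in the 3 wild-type libraries (38.8 to 52.1 CPM per kb).

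The start regions of these genes are shown because adjacent genes differed in how far their RNA changed. The RefSeq windows (GRCm38.p6, which is mm10) run from 250 bases before to 50 after an annotated start, at chr17:35205302-35205601 (minus strand) for Lta, chr17:35201958-35202257 (minus strand) for Tnf and chr17:35194257-35194556 (plus strand) for Ltb. The Lta window lies mostly within the annotated span of the gene, which reaches upstream of the start used here, to 35205578. Tnf is printed outside the rule for printed members, because it lies between the others. Capitals mark the letters TATAAA of the TATA box motif in Lta and Tnf and a match to the NF-κB consensus motif in Ltb.
Lta: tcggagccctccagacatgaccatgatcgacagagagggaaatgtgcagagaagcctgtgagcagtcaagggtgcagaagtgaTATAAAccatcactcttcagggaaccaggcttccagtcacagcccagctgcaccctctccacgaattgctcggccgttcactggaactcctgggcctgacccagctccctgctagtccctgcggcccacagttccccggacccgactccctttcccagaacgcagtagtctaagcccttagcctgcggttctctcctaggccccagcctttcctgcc
Tnf: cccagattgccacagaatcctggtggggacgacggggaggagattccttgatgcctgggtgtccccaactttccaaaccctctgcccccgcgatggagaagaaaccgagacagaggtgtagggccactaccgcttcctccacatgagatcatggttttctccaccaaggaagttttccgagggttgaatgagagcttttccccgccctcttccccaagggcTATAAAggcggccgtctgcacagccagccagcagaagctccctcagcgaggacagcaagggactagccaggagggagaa
Ltb: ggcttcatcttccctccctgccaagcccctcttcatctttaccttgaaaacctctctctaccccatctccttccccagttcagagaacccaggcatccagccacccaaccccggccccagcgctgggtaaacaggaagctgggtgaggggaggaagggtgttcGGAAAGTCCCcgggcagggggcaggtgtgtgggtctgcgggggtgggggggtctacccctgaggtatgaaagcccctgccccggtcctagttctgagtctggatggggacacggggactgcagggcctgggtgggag

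In Tnf the TATAAA match began 29 bases before the annotated start. In Lta it began 167 bases before the start used for the window, which is inside the annotated gene span. The Ltb window held the kappaB match GGGACTTTCC on the minus strand, beginning 87 bases before the start. Over both strands of all 32851 windows in the table, 6.93% held the NF-κB consensus and 13.6% held TATAAA. The core CCATNTT of YY1, the DNA-binding factor that the series title links to MSL targeting, was in 16.1% of all windows and in 0 of the 9 member windows (Cd40 had none in the table). None of the 3 windows held a second of these motifs. These matches describe letters in a window and were not tested as binding sites.

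Genes around the members showed no fall like that of Lta. Of 31 tested genes within 100 kb of any member, edgeR called 1 higher and 0 lower, and the unadjusted p was under 0.05 for 5 higher and 2 lower genes. DESeq2 also called 1 higher and 0 lower. The neighbours ran from -0.44 to 0.84 on the log2 scale around a median of 0.12, beside a median of 0.0040 over all tested genes. The called neighbour was Nfkbil1, which encodes a nuclear protein related to the inhibitors of NF-κB and lies 14.6 kb from Lta. It averaged 21.2 CPM in the knockout and 14.7 CPM in the wild type (log2 fold change 0.53 ± 0.13 (SE), adjusted p = 0.0468 in edgeR). Leaving out any single library ended that call, with an adjusted p from 0.0537 to 0.162 in edgeR. The other 13 tested neighbours of Lta had log2 fold changes from -0.065 to 0.71. The micro RNA genes Mir6974 and Mir6973a lie within Lta and Ltb. Mir6974 was given 0 reads in every library and Mir6973a 0 to 4, and how reads over such overlaps were counted is not known.

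**Figure D3:**
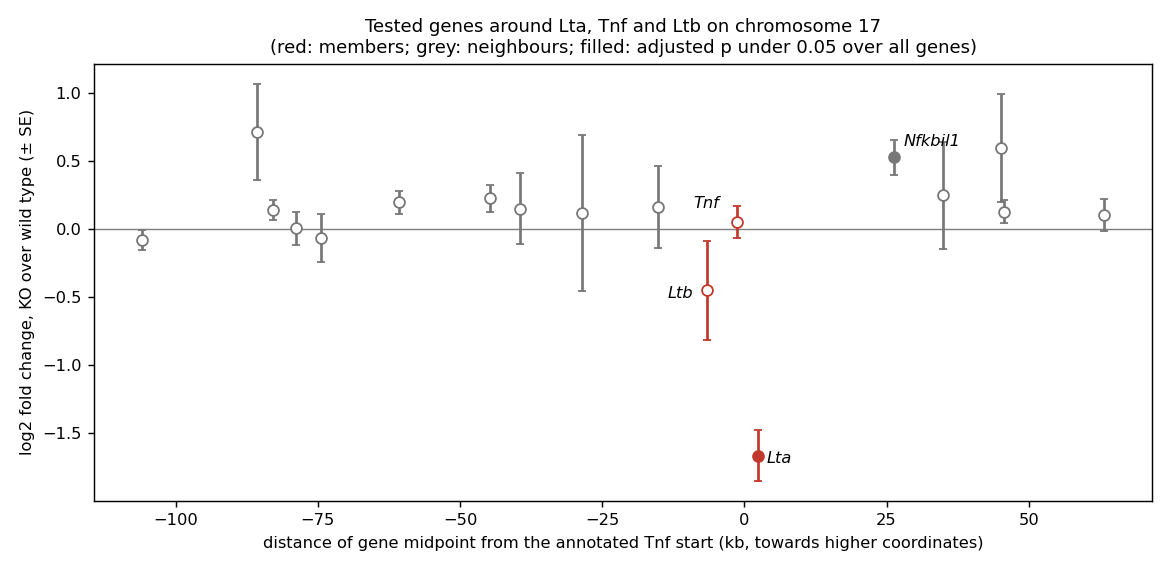
Log2 fold change of knockout over wild type with SE bars (y axis) for the tested genes around Lta, Tnf and Ltb, placed by the distance of their midpoint from the Tnf start (x axis, kb), with members in red, neighbours in grey and called genes filled. Lta lies at -1.67, apart from Tnf at 0.05 and from the neighbours, which lie between -0.079 and 0.71.

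Among the receptors, only 2 of 7 had enough reads to pass the filter on low counts. Tnfrsf1b (chromosome 4, 145212368 to 145246870) encodes TNFR2, the TNF receptor without a death domain. It was at 42.5, 40.7 and 43.2 CPM in knockout replicates 1, 2 and 3, against 46.1, 43.7 and 44.9 CPM in wild-type replicates 1, 2 and 3. The knockout libraries lay just below the wild-type libraries without overlap, a separation that 20.9% of all tested genes showed in one direction or the other. The difference was small, at a log2 fold change of -0.093 ± 0.076 (SE).

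Tnfrsf13c (chromosome 15, 82221742 to 82224380) encodes BAFF-R, the receptor for the survival factor BAFF on maturing B cells. It stood at 71.1, 44.6 and 39.7 CPM in knockout replicates 1, 2 and 3, against 51.9, 57.3 and 57.4 CPM in wild-type replicates 1, 2 and 3. Knockout replicate 1 was above every wild-type library and the other two knockout libraries below them all, so the groups overlapped. The log2 fold change was -0.10 ± 0.18 (SE), and it ran from -0.40 without knockout replicate 1 to 0.06 without knockout replicate 3. Knockout replicate 1 was the highest and knockout replicate 3 the lowest of its group in Tnfrsf13c, Tnf and Ltb alike.

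Cd40, Fas and Cd27 were near the limit of detection. Cd40, the receptor through which helper T cells activate B cells, had 10, 5 and 4 reads in knockout replicates 1, 2 and 3, against 3, 1 and 2 reads in wild-type replicates 1, 2 and 3. In CPM the knockout libraries, at 0.235 to 0.622, lay above the wild-type libraries, at 0.0564 to 0.212. Of all tested genes, 20.9% separated in one direction or the other, and Cd40 had too few reads to be tested. Fas, the death receptor for Fas ligand, had 8, 2 and 2 reads in the knockout replicates, against 4, 2 and 4 reads in the wild-type replicates. Cd27, a costimulatory receptor of memory B cells and T cells, had 3 reads in each knockout library, against 6, 3 and 1 in the wild-type replicates. These levels lay around that of 3 reads per library, at which a difference could not be judged for Cd40, Fas or Cd27. All 3 failed the filter on low counts.

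Ltbr, the receptor of the lymphotoxin heterotrimer, and Tnfrsf1a, the death domain receptor TNFR1, had 0 reads in all 6 libraries. Over a group, 0 reads limit each of them to at most 0.0571 CPM in the knockout and 0.0639 CPM in the wild type. Among 20957 protein-coding genes in the files, 30.3% had 0 reads throughout. Both lie with Cd27 in a stretch of 129.9 kb on chromosome 6 (Cd27 at 125232620 to 125237136, Ltbr at 125306571 to 125313885, Tnfrsf1a at 125349723 to 125362483). No gene of that stretch had enough reads to be tested. Just outside it, Tapbpl, 0.76 kb from Cd27, averaged 9.1 CPM in the knockout and 9.76 CPM in the wild type.

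Of 115 other genes listed for the ligands, receptors and their signalling, 76 were tested, and 4 fell (5.26%) while 0 rose. Over all tested genes 4.59% were called in either direction and 2.79% were called lower. The share among these genes was near the first value and above the second, and it rests on 4 genes. The lists were chosen with earlier results of these data known, so nothing is read from that share. At an unadjusted p under 0.05 there were 8 lower and 2 higher, beside 1103 lower and 907 higher among all 13077 tested genes, and DESeq2 called 5 lower and 1 higher. The median log2 fold change of these genes was -0.03. The 4 that fell were Tnfsf11, Ripk3, Bid and Rhbdf2.

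Most other ligands of the family were hardly transcribed, with 3 of 15 tested and 6 at 0 reads in all libraries, among them Cd40lg and Cd70, the ligands of Cd40 and Cd27. Tnfsf11, which encodes RANKL, the cytokine that drives osteoclast formation, fell. It was at 57.2, 60 and 44.7 CPM in knockout replicates 1, 2 and 3, against 71.3, 87 and 86.3 CPM in wild-type replicates 1, 2 and 3 (log2 fold change -0.59 ± 0.12 (SE), adjusted p = 0.0189 in edgeR). The groups did not overlap. Leaving out wild-type replicate 2 gave an adjusted p of 0.0663 in edgeR, and leaving out wild-type replicate 3 gave 0.0565, which ended the call. Tnfsf13b, which encodes BAFF, the ligand of BAFF-R, was between 0.235 and 0.33 CPM in the knockout and between 0.199 and 0.424 CPM in the wild type, and was not tested.

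Of 21 other receptors, 10 were tested and edgeR called 0, although 1 higher and 2 lower genes had an unadjusted p under 0.05 and DESeq2 called 1 higher and 1 lower. The smallest p belonged to Tnfrsf18 (GITR, a costimulatory receptor of T cells). It had few reads, with 7, 5 and 4 in the knockout replicates, against 12, 17 and 11 in the wild-type replicates. Its level averaged 0.311 ± 0.108 CPM in the knockout and 0.846 ± 0.115 CPM in the wild type (log2 fold change -1.45 ± 0.41 (SE), adjusted p = 0.0854 in edgeR). The genes called by DESeq2, named after their values were seen, were Tnfrsf19 and Tnfrsf9. Tnfrsf19 (TROY) was at 75.6, 98.8 and 109 CPM in the knockout replicates and at 51, 81.5 and 58.9 CPM in the wild-type replicates, which overlap. Tnfrsf9 (4-1BB) was at 8.89, 6.67 and 3.17 CPM in the knockout replicates, against 12.9, 11.2 and 11.9 CPM in the wild-type replicates, without overlap. Tnfrsf13b, which encodes TACI, a further receptor for BAFF and likewise named after its values were seen, had a log2 fold change of 0.06 ± 0.08 (SE).

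All 22 TRAF adaptors and members of the receptor-proximal ubiquitin complex were tested, and neither edgeR nor DESeq2 called any (0 and 0). An unadjusted p under 0.05 was reached by 1 higher and 0 lower genes. The median log2 fold change was -0.02 and the smallest p that of Tnip1, a partner of the deubiquitinase A20, at 0.21 ± 0.10 (SE, adjusted p = 0.318 in edgeR). All 12 genes of the IKK kinases and NF-κB were tested as well. Calls by edgeR and by DESeq2 numbered 0, as did genes with an unadjusted p under 0.05. Their log2 fold changes ran from -0.18 to 0.24, and the smallest p was that of Ikbkg, the regulatory IKK subunit, at -0.16 ± 0.09 (SE, adjusted p = 0.472 in edgeR). Of 20 genes that TNF or lymphotoxin induce, 4 were tested, with 0 calls in edgeR, 0 in DESeq2 and 0 genes whose unadjusted p was under 0.05. Among these the smallest p was that of Junb, an AP-1 subunit, at 0.27 ± 0.13 (SE, adjusted p = 0.353 in edgeR).

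In death receptor signalling, 2 of 12 tested genes fell and 0 rose, with 3 lower and 0 higher at an unadjusted p under 0.05, and DESeq2 called 2 lower and 0 higher. Ripk3, the kinase that starts necroptosis, was at 4.29, 8.97 and 3.76 CPM in knockout replicates 1, 2 and 3, against 12.9, 16.5 and 13.2 CPM in wild-type replicates 1, 2 and 3. All 3 knockout libraries were below the wild-type libraries (log2 fold change -1.30 ± 0.28 (SE), adjusted p = 0.0279 in edgeR). As with Lta, knockout replicate 2 was the highest of its group, and without it the log2 fold change was -1.81. Bid, which couples death receptors to mitochondria, averaged 74.1 ± 3.25 CPM in the knockout and 93.2 ± 4.49 CPM in the wild type (log2 fold change -0.33 ± 0.07 (SE), adjusted p = 0.0308 in edgeR). Leaving out any single library ended the Bid call, with an adjusted p from 0.0623 to 0.11 in edgeR. The Ripk3 call ended when any library other than knockout replicate 2 was left out (adjusted p from 0.0534 to 0.0871 in edgeR) and with library totals in place of TMM (0.0542). The adaptor Fadd and the initiator Casp8, named after their values were seen, had log2 fold changes of -0.09 and 0.05.

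Among 13 tested genes of TNF shedding and TNF mRNA decay, 1 fell and 0 rose, with 2 lower and 0 higher at an unadjusted p under 0.05, and DESeq2 called 1 lower and 0 higher. Rhbdf2 encodes iRhom2, which carries the TNF-cleaving protease ADAM17 to the cell surface. It was at 16.7, 16.9 and 14.5 CPM in knockout replicates 1, 2 and 3, against 21.8, 26.6 and 22.8 CPM in wild-type replicates 1, 2 and 3 (log2 fold change -0.57 ± 0.11 (SE), adjusted p = 0.0186 in edgeR). The groups did not overlap, but the call ended when knockout replicate 3 was left out (adjusted p = 0.0646 in edgeR) or wild-type replicate 2 (0.0714). Adam17 itself had a log2 fold change of -0.04 ± 0.07 (SE).

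**Figure D4:**
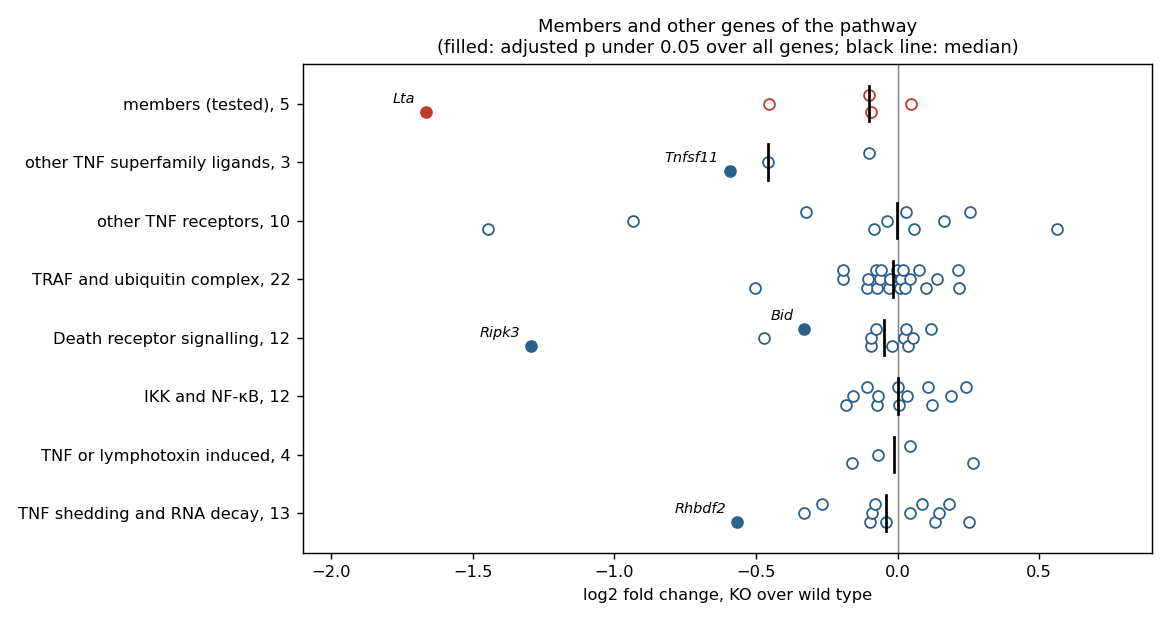
Log2 fold change of knockout over wild type (x axis) of each tested gene in the member group and in the 7 pathway lists (y axis, with the number tested), with called genes filled and medians as black lines. Lta lies at -1.67, the 4 called pathway genes lie between -1.30 and -0.33, and the list medians lie between -0.46 and 0.0019.

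The 5 tested genes whose profile over the 6 libraries was most like that of Lta were Nt5dc2, Osbpl5, Hpse, Tmem121 and Gpr65. Likeness was the root mean square difference of centred log2 CPM, which ran from 0.14 for Nt5dc2 to 0.20 for Gpr65 on the log2 scale. Nt5dc2 was at 7.65, 10.5 and 7.19 CPM in the knockout replicates, against 23.2, 21.8 and 27.9 CPM in the wild-type replicates. The log2 fold changes of the 5 ran from -2.02 to -1.49. Genes picked for likeness to Lta over these same libraries have to share its lower level in the knockout, so nothing is read from that. The profiles also share libraries, depth and scaling.

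Marker lists were set beside all tested genes, of which 2.79% were called lower and 1.8% higher in the knockout. Only the plasma cell list had summed levels that did not overlap between the groups. Of the pre-B cell markers 1 fell, Il7r, the receptor for the interleukin 7 of the culture (log2 fold change -1.53). Of 7 plasma cell markers, 5 were tested and 3 fell (Xbp1, Sdc1 and Mzb1). Among the 5, 4 had a negative log2 fold change and 1 a positive one (0.12). The list summed to between 330 and 362 CPM in the knockout libraries and between 658 and 660 CPM in the wild-type libraries. Its defining factor Prdm1 had between 0 and 0.169 CPM. Of 12 macrophage and dendritic cell markers, 4 were tested and 1 rose (Flt3), with sums between 22.4 and 40.5 CPM in the knockout libraries and between 10.5 and 23.2 CPM in the wild-type libraries, and Lyz2, Mertk and Clec9a at 0 reads. Of 10 stromal and endothelial markers, 1 was tested (Pecam1, log2 fold change 0.15, not called), and 5 were at 0 reads, Pdgfra and Pdgfrb among them. The list summed to between 115 and 131 CPM in the knockout libraries and between 103 and 123 CPM in the wild-type libraries. The part of such cells or states in the level of Lta was not tested.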

How the data were processed

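For 6 RNA libraries the authors deposited whole-number raw counts by gene, per the file headers. Per the labels' protocols, total RNA was depleted of ribosomal RNA. STAR 2.5.3a, limma, mm10 and featureCounts 2.0.0 appear, with no role or order, in the submitters' processing notes. The sources used here do not give annotation release, strand setting or treatment of multiply mapped reads, so reads of overlapping genes can be shared. ChIP and input samples (9) were not used here.

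Groups follow the titles. Of 55335 identifiers, 55154 matched a symbol. Genes kept by filterByExpr (13077) entered the quasi-likelihood test of edgeR 4.0.16 (TMM factors, group as the single term, R 4.3.3), with Benjamini-Hochberg adjustment over all tested genes and calls at an adjusted p under 0.05. The SE comes from the fold change and the F statistic. Positions and start regions came from RefSeq GRCm38.p6. Exon lengths were not used here, so the planned levels per exon length were replaced by levels per gene span for the ligands. Members, lists and tests were chosen with earlier results of these data known. Named genes were all members, up to 3 called genes per list and direction (or the gene with the smallest p), called neighbours and the 5 genes most like the leading member. The scripts were tested on simulated data with 3 libraries per group. There, edgeR called 48.5% of genes changed 1.5-fold, 68.8% of those changed 2-fold and 100% of those changed 4-fold. Of the unchanged genes, 0.11% were called. Smaller changes can thus be missed, so 0 calls in a list do not show that its genes were unchanged. Alternatives were RLE, library totals, other filters on low counts, DESeq2 1.42.0, limma-voom (limma 3.58.1), a replicate block and leaving out libraries. Each p-value reflects only how far these libraries vary, possibly for technical reasons. Libraries differed by more than sampling noise in every pair (chi-square per degree of freedom from 6.53 to 29.6). Limits from a count of 0 (3 counts) take in counting error alone.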

Additional observations from a re-analysis of the deposited data

How the results depend on the processing

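Under the 14 alternatives the log2 fold change of Lta ran from -1.97 to -1.53, which is a description, since Lta was chosen with this difference known. The values of Ltb ran from -0.99 to -0.087 and those of Tnfrsf1b from -0.11 to -0.06. The sign of Tnf and Tnfrsf13c depended on single libraries. Leaving out each library in turn gave -0.053 to 0.16 for Tnf and -0.40 to 0.058 for Tnfrsf13c, which was 0.0060 without knockout replicate 2 and 0.027 without both replicates 2. The all-gene counts of 235 higher and 365 lower became 482 and 721 without the low-count filter, and 232 lower when a mean log2 CPM of 2 was required. They became 381 and 565 with the replicate block and 224 lower without both replicates 2, and dropping single libraries gave 138 to 227 higher and 242 to 316 lower, the lowest of both without wild-type replicate 1. Of the pathway genes, 1 was higher without the low-count filter, in DESeq2, with the replicate block and without both replicates 2 (Tnfrsf19 each time). Without each library in turn 0 to 1 were higher and 0 to 3 lower (0 lower without wild-type replicate 2), and without both replicates 2 there was 1 lower (Ripk3). Among neighbours, 0 were higher with that stricter filter, in limma-voom, with the replicate block, without both replicates 2 and without each single library, and 1 (Vamp1) was lower without the low-count filter and with the replicate block. Same-numbered libraries correlated at 0.029, 0.21 and 0.40 in their deviations from the group means. Different-numbered libraries ran from -0.40 to 0.27, the highest between knockout replicate 2 and wild-type replicate 1. Knockout replicates 1 and 3 each correlated best with their own number. The labels do not state that numbers mark pairs, so the main fit had no pairing and the replicate block was an alternative. Levels per exon length and their alternative were not run as planned. No scaling moved the median of all genes by over 0.1 (largest shift 0.019 with library totals). Reads limit statements on Cd40, Fas, Cd27, Ltbr and Tnfrsf1a, each with at most 10 in a library.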
